A study of Mus musculus with 6 samples.

Results

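The regions described here are the anti-FLAG ChIP-Seq peaks of mouse chromosomes 7 and 12 in Onecut3-overexpressing (Onecut3-OE) mouse embryonic fibroblasts (MEFs), 2336 merged regions of 50844 in all. They rest on 3175 of 69278 peaks. Both chromosomes were selected on a measured value, their low number of peaks per Mb, so that density is given as a description and was not tested. The Onecut3-OE FLAG group had 3 replicates of MEFs from C57BL/6 embryos, in which 100 ng/mL doxycycline induced FLAG-tagged Onecut3 from a Retro-X Tet-One retroviral system. One FLAG library of the same cells without doxycycline (control), 1 IgG and 1 input library of Onecut3-OE cells were not analysed here. Signal that the FLAG antibody gives without Onecut3 was therefore not examined. Whether the authors' peak calling used any of these libraries as its control is not known here. Expression was enforced from the retroviral system, and nothing in the sources says that the replicates came from separate cultures. Peaks were called by the authors in each replicate, and peaks with 1 bp or more in common were joined. A region with a peak in each of the 3 lists is called shared. The lists do not give read numbers, so depth is unknown, and the fold of a peak (its ChIP pileup over the expected background, with 1 added to each) is compared only within a list. Positions are on GRCm38.

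Onecut3 belongs to the ONECUT family of transcription factors, which carry a single CUT domain followed by a homeodomain and bind DNA at short A/T-rich sites. Its relatives Onecut1 (HNF6) and Onecut2 are best known from liver, pancreas and neurons. Fibroblasts are not a cell type in which the family is usually described, so the regions are those of an enforced factor.

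To show what lay under the strongest shared regions, promoter sequences were read from the RefSeq promoter table of GRCm38.p6. Of the shared regions on both chromosomes, 27 overlapped one of its windows, which run from 250 bases before to 50 bases after a transcription start. The 6 with the highest mean rank of fold are printed with 120 bases, 5′ to 3′ along the gene's own strand, as close to the summit as a limit of 30 bases past the start allows. Capitals mark ATCAAT on either strand (ATTGAT on the other) or ATCGAT, which is its own reverse complement. Both are short forms of the sites bound by ONECUT factors.
Sec23ip chr7:128744780-128744899 (+): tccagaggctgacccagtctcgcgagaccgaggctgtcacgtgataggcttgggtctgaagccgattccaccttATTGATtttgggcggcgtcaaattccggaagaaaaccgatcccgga
Hbp1 chr12:31950306-31950425 (-): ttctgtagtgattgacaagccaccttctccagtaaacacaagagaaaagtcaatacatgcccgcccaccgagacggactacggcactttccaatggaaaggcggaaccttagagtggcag
Dock4 chr12:40445842-40445961 (+): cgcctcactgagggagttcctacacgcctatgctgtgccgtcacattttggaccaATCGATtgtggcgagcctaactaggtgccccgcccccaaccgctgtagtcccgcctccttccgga
Kdm8 chr7:125444530-125444649 (+): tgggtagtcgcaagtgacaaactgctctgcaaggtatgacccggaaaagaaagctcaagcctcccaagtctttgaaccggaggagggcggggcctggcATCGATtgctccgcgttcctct
Zfp689 chr7:127449129-127449248 (-): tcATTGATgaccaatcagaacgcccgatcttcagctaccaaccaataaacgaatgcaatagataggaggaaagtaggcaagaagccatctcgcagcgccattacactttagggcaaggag
Scaf1 chr7:45016220-45016339 (-): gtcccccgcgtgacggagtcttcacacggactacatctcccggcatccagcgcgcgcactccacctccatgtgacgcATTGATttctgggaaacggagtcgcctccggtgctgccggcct
In 5 of the 6 a match was present, and it lay 1 bp from the summit at Sec23ip, 2 bp at Dock4, 10 bp at Kdm8, 38 bp at Scaf1 and 141 bp at Zfp689. The Hbp1 window held neither word. The Dock4 start faces that of Zfp277, and 1 region covered both windows.

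Another 8 shared regions had a match in their promoter window. They were chosen for it, and 60 bases around the match are shown so that the flanks can be compared.
Zfp27 chr7:29906262-29906321 (-): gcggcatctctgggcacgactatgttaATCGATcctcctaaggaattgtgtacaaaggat
Tpcn2 chr7:145284103-145284162 (-): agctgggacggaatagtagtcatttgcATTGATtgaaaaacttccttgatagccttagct
Tspan13 chr12:36042570-36042629 (-): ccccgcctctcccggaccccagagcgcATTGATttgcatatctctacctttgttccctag
Rusf1 chr7:128288991-128289050 (-): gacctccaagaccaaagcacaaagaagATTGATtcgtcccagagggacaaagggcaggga
Sptlc2 chr12:87388479-87388538 (-): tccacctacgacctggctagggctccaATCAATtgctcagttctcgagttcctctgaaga
Usp47 chr7:112023427-112023486 (+): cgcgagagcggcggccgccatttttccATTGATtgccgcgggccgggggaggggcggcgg
Ercc2 chr7:19381784-19381843 (+): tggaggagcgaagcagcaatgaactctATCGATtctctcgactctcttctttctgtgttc
Egln3 chr12:54204027-54204086 (-): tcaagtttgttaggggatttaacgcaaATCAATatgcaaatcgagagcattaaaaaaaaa
The words were centred 3 bp from the summit at Zfp27, 15 bp at Usp47, 27 bp at Tpcn2 and 28 bp at Ercc2. At Egln3 the distance was 35 bp, at Tspan13 38 bp, at Sptlc2 80 bp and at Rusf1 272 bp. A match is a string of letters and not evidence of a bound site. The words can share bases with the CCAAT box of many promoters, as they do at Dock4.

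Promoter windows with a shared region held these words more often than the windows without a region. On chromosomes 7 and 12, 14 of 28 windows with a shared region had ATCAAT or ATCGAT (50.0%), against 247 of 2673 windows with no region (9.24%). Windows with a region in 2 lists lay between (7 of 22, 31.8%), and those with a region in 1 list were close to windows with none (6 of 49, 12.2%). ATCGAT alone was in 5 of 28 windows with a shared region (17.9%), against 16 of 2673 with none (0.599%). The match of all 14 windows was inside the shared region, with that between Dock4 and Zfp277 counted in both windows, and 11 lay within 50 bp of its summit, with a median distance of 27.5 bp. The other chromosomes had 115 of 320 (35.9%) with a shared region, 65 of 261 (24.9%) in 2 lists, 76 of 495 (15.4%) in 1 list and 1030 of 17414 (5.91%) with none. Of all windows of this length in the table, 7.34% held either word, 6.54% ATCAAT and 0.856% ATCGAT. The CCAAT box, a word that is not of the ONECUT type, was found in 18 of 28 windows with a shared region (64.3%) on chromosomes 7 and 12. It was in 12 of 22 with a region in 2 lists (54.5%), 32 of 49 in 1 list (65.3%) and 1064 of 2673 with none (39.8%). Its share thus did not rise with the number of lists. These shares were not tested.

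**Figure D1:**
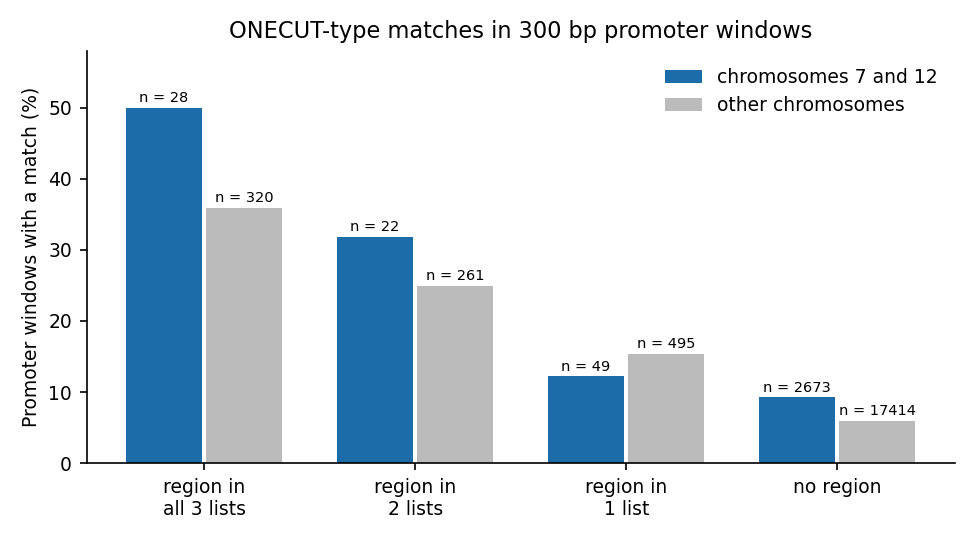
Share of 300 bp promoter windows (percent, y axis) with ATCAAT or ATCGAT on either strand, by the number of lists with a region there, on chromosomes 7 and 12 (blue) and on other chromosomes (grey), with the number of windows above each bar. On chromosomes 7 and 12 the share was 50.0% with a region in all 3 lists and 9.24% with no region.

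Chromosomes 7 and 12 had the fewest peaks per Mb of the 19 autosomes in all 3 lists. Chromosome 7 had 730, 257 and 519 peaks in replicates 1, 2 and 3, which is 5.02, 1.77 and 3.57 peaks per Mb (3.45 ± 1.63, SD, n = 3). Chromosome 12 had 796, 301 and 572 peaks, or 6.63, 2.51 and 4.77 per Mb (4.63 ± 2.07). The other 17 autosomes together had 13.2, 5.47 and 10.5 per Mb (9.71 ± 3.93). Just outside the selection lay chromosome 9 with 6.40 ± 2.99 and chromosome 18 with 6.51 ± 2.84 peaks per Mb, and chromosome 19 was highest at 22.4 ± 6.10. Replicate 2 had the fewest peaks on every autosome, and each list placed chromosome 7 lowest and chromosome 12 next. The X chromosome, which is not an autosome, had 5.75, 1.56 and 4.30 peaks per Mb and lay below chromosome 12. Chromosomes 7 and 12 made up 10.8% of the autosomes' length and held 13.1% of their protein-coding genes, yet 4.59% of all regions.

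**Figure D2:**
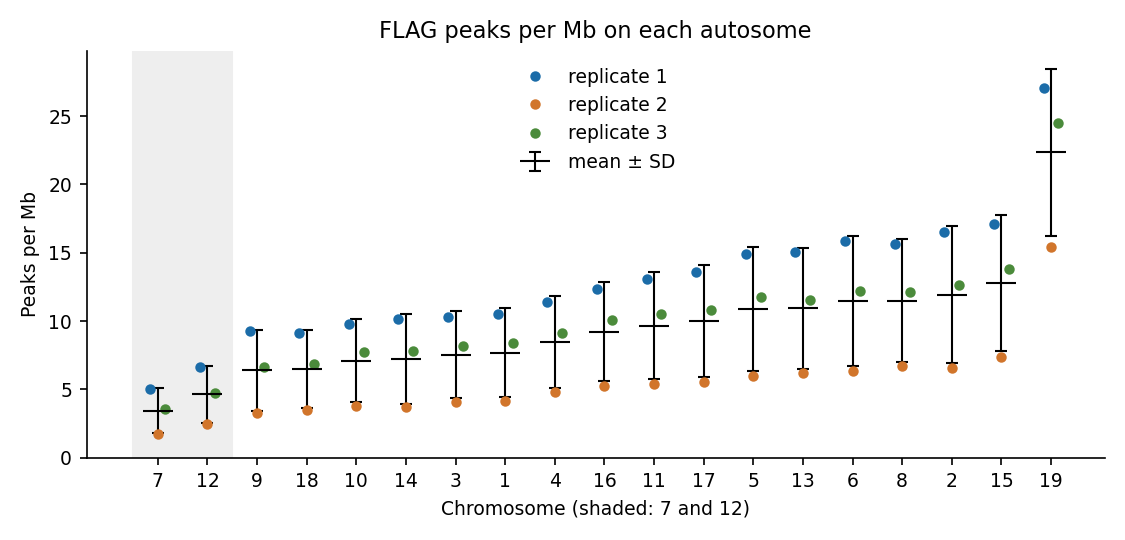
Peaks per Mb (y axis) on each autosome (x axis, ordered by the mean), with 1 point per replicate and the mean ± SD over 3 replicates in black. Chromosomes 7 (3.45) and 12 (4.63) are shaded and lie below chromosome 9 (6.40), the next in order.

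Gene content did not follow this order. Chromosome 7 had 13.9 protein-coding genes per Mb, more than any of the other 17 autosomes (5.63 to 13.1), and chromosome 12 had 5.65. Over the 19 autosomes, which share the same 3 libraries, Spearman's rho between genes per Mb and peaks per Mb was 0.26. A measure from the peaks themselves followed the order more closely. In replicates 1 and 3 the pileup and background behind each peak could be solved from its fold and p-value, and a background over 2% above the genome-wide floor is called raised. On chromosome 7, 20.0% and 22.4% of peaks had a raised background in replicates 1 and 3, and on chromosome 12 21.7% and 22.9%, against 34.8% and 38.8% on the other autosomes. The lowest of the other autosomes had 26.2% and 28.6%, and chromosome 19 had 71.1% and 76.3%. Spearman's rho between this share and peaks per Mb was 0.85 in replicate 1 and 0.89 in replicate 3 (n = 19). The part of the background in the density was not tested.

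Although sparse, the regions of both chromosomes were shared between replicates at close to the share elsewhere when all deposited peaks were used. Of 1108 regions on chromosome 7, 113 were shared (10.2%, 95% exact Clopper-Pearson interval 8.48 to 12.1%), and of 1228 on chromosome 12, 120 (9.77%, 8.17 to 11.6%). The other autosomes had 10.3% (10.0 to 10.6%), and 10.1% of all regions were shared. On the X chromosome 3.54% were. Per Mb, chromosome 7 held 0.778 and chromosome 12 1.00 shared regions, against 2.19 on the other autosomes. Intervals cover counting error only.

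The share of a list's peaks that lay in shared regions was 15.5%, 44.0% and 22.0% in replicates 1, 2 and 3 on chromosome 7, against 16.6%, 40.3% and 21.1% on the other autosomes (higher in 2 of 3 lists, mean difference 1.12 percentage points, exact two-sided sign-flip permutation test over the 3 lists, p = 0.75). On chromosome 12 it was 15.1%, 39.9% and 21.2% (mean difference -0.65, exact permutation p = 0.5). With 3 lists this exact test cannot go below p = 0.25. These differences depended on the peak limit. At a −log10 q of at least 5 they were 11.93 percentage points for chromosome 7 and 2.81 for chromosome 12, and at a fold of at least 5 they were 3.51 and -14.03 (exact permutation p = 0.25 for each). Median fold was 3.22, 3.90 and 3.29 on chromosome 7, against 3.03, 3.82 and 3.18 on the other autosomes, higher in 3 of 3 lists (mean difference 0.13 ± 0.06, SD, exact permutation p = 0.25). On chromosome 12 it was 3.03, 3.90 and 3.18 (exact permutation p = 1).

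Peaks of chromosome 7 lay near transcription starts more often than those of the other autosomes, and peaks of chromosome 12 less often. Within 3 kb of a listed start were 20.0%, 24.5% and 17.5% of the peaks on chromosome 7 in replicates 1, 2 and 3, against 7.88%, 10.7% and 8.50% on the other autosomes (mean difference 11.6 percentage points, higher in 3 of 3 lists, exact permutation p = 0.25). On chromosome 12 the shares were 6.53%, 7.64% and 6.99%, lower in 3 of 3 lists (mean difference -1.98, exact permutation p = 0.25). Starts cover 7.38% of the bases of chromosome 7 at this distance and 3.06% of chromosome 12, against 4.23% elsewhere. Chromosome 18 has no start in the table and stayed out of these values. Of the 113 shared regions of chromosome 7, 35 were within 3 kb of a start (31.0%, exact interval 22.6 to 40.4%), 42 in a gene body and 36 between genes. Chromosome 12 had 14 (11.7%, 6.53 to 18.8%), 48 and 58. On the other autosomes 13.1% (12.1 to 14.1%) of shared regions were near a start. The median distance to a start was 13.7 kb on chromosome 7 and 64.2 kb on chromosome 12, against 53.1 kb.

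In bins of 1 Mb, leaving out the unassembled first 3 Mb, chromosome 7 had a median of 7 regions and chromosome 12 of 10, against 20 on the other autosomes. Chromosome 7 had 7 of 143 bins without a peak in any list (4.90%) and chromosome 12 had 2 of 118 (1.69%), against 9 of 2152 (0.418%) elsewhere and 0.746% over all autosomes. Of the 7 empty bins of chromosome 7, 5 held vomeronasal or olfactory receptor genes. The other empty bins were that from 32 to 33 Mb, among the secretoglobin genes, and that from 37 to 38 Mb. On chromosome 12 the bin from 114 to 115 Mb, in the immunoglobulin heavy chain locus, and that from 106 to 107 Mb were empty. No shared region was found in 80 bins of chromosome 7 (55.9%) and 52 of chromosome 12 (44.1%), against 25.1% of bins elsewhere.

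**Figure D3:**
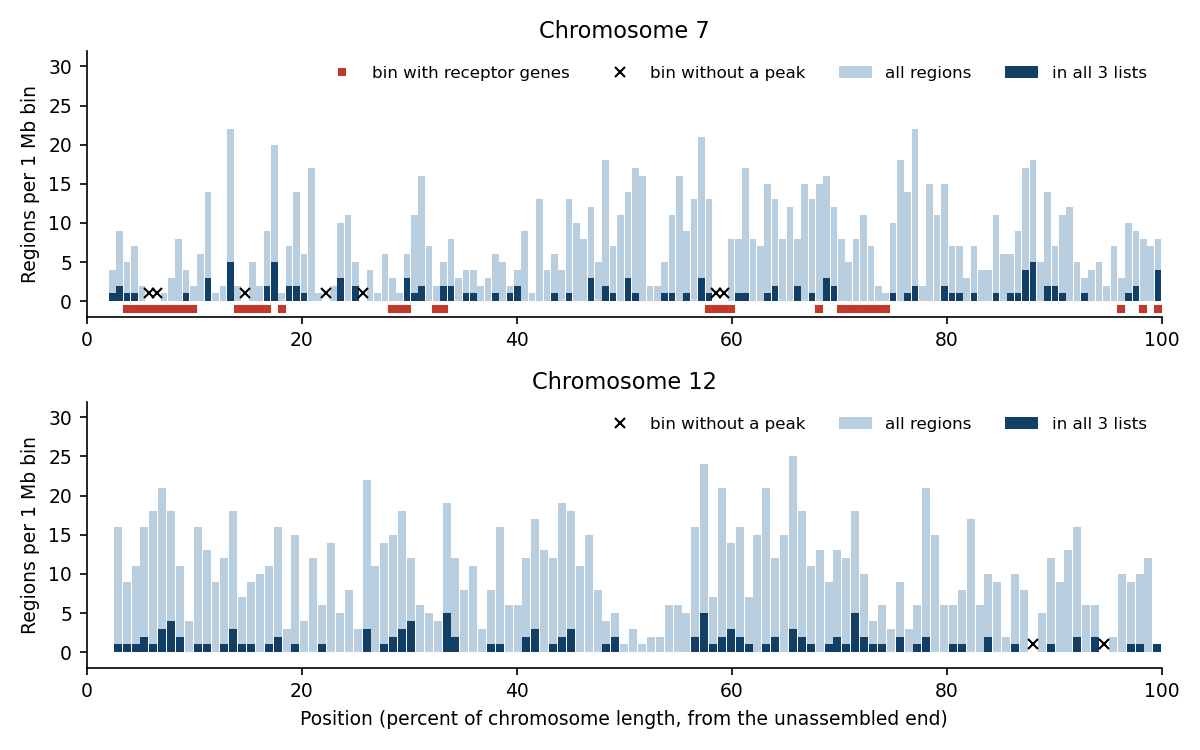
Regions in each 1 Mb bin (y axis, count) along chromosomes 7 and 12 (x axis, percent of length), all in light blue and those in all 3 lists in dark blue. Red squares mark bins with receptor genes and crosses bins without a peak, 7 on chromosome 7 and 2 on chromosome 12.

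Chromosome 7 carries 434 genes for olfactory, vomeronasal and Mas-related receptors, the chemosensory and itch receptors of sensory neurons, and none had a shared region within 3 kb. Over all protein-coding genes this share was 4.40% on chromosome 7 and 11.5% on all chromosomes. A count of 0 of 434 allows a share of up to 0.691% if the genes are independent. Most of them lie side by side in clusters, so this limit is too tight. Receptor genes of the other autosomes had 4 of 1038 (0.385%), which is below that limit. A region in any list reached 12 of the 434 genes. In 14 clusters (at least 5 members, gaps of at most 500 kb) with 420 genes over 19.3 Mb there were 48 regions, 2.49 per Mb. Of these 0 were shared, which allows up to 6.25% by counting error only, against 10.2% of all regions of chromosome 7. The peaks in them numbered 30, 8 and 13 in replicates 1, 2 and 3. The 35 receptor clusters of the other autosomes had 426 regions, 12.5 per Mb, of which 25 were shared (5.87%). Clusters of these families were thus below their own chromosomes in both sets, by 2.49 against 7.62 regions per Mb on chromosome 7 and by 12.5 against 21.3 elsewhere. Reads from near-identical family members can map to more than 1 copy and how such reads were handled is not given in the sources used here, so values in these clusters are uncertain.

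The longest olfactory cluster, 126 receptor genes from Olfr543 to Olfr692 over 2.89 Mb, held 18 of the 20 regions in the olfactory clusters. The other 5 had 2 in all, and 3 of them, with 15, 25 and 19 receptor genes, had none. The largest vomeronasal cluster, 86 genes from Vmn1r91 to Vmn1r183 over 3.95 Mb, had 9 regions. A cluster of 22 genes from Vmn1r72 to Vmn1r89 had 9 as well, in 1.55 Mb, and the 12 Vmn2r genes from Vmn2r65 to Vmn2r76 had none. The Mas-related cluster (Mrgpra9 to Mrgprb3) had 2 regions, both in replicate 1.

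The low density was also present away from receptor genes. In the 107 bins of chromosome 7 without a receptor gene there were 8.81 regions per Mb, and in the 36 with one 4.58, with 15 shared regions, some in other genes of the bin and some between genes. Chromosome 12 has no such receptor gene and had 10.4 regions per Mb, and the bins without receptor genes on the other autosomes had 21.9.

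Other gene families differed from one another. The 26 kallikrein genes of chromosome 7, serine proteases that lie side by side, had 0 regions over 0.549 Mb. The cluster of 35 secretoglobin genes (small secreted proteins of glands) had 2 regions over 2.84 Mb, and 21 Ceacam and Psg genes (adhesion molecules and pregnancy-specific glycoproteins) had 5 over 2.15 Mb, with 0 shared in either. On chromosome 12 the immunoglobulin heavy chain locus, with 216 gene segments over 2.75 Mb, had 2 regions, both in replicate 1. The Serpina cluster of chromosome 12, serine protease inhibitors made mainly in liver, had 9 regions over 0.798 Mb, 11.3 per Mb, of which 1 was shared. It lay nearest to Serpina3n with folds of 5.15, 5.29 and 2.76. The secretoglobins were added as a family after the empty stretches had been seen.

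Clusters of genes named Zfp (zinc finger proteins, mostly DNA-binding) held shared regions on chromosome 7. The 8 clusters there, with 76 such genes, had 54 regions over 5.03 Mb (10.7 per Mb) and 15 of them were shared (27.8%), against 205 regions (22.5 per Mb) and 16 shared (7.80%) in 9 clusters of the other autosomes. This difference was not tested. The clusters also hold other genes, and most of their shared regions were in or nearest to these. An example is Psmc4, a proteasome subunit, with folds of 7.78, 4.83 and 6.27. The shared regions inside Zfp genes were those of Zfp574, Zfp607b, Zfp27 and Zfp689.

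**Figure D4:**
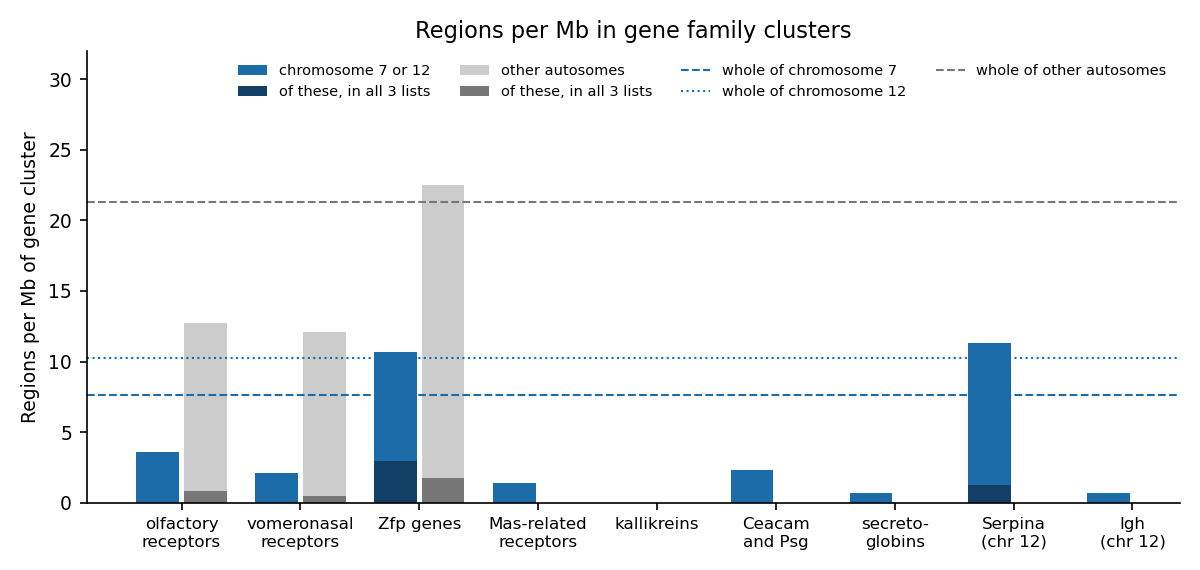
Regions per Mb (y axis) in clusters of gene families on chromosome 7 or 12 (blue, shared part dark) and, for the same families where present, on the other autosomes (grey, shared part dark). Lines give the whole chromosomes (7.62 for chromosome 7, 10.2 for chromosome 12, 21.3 elsewhere), and the receptor clusters of chromosome 7 had no shared region.

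Stretches of more than 1 Mb between neighbouring regions numbered 17 on chromosome 7 (24.6 Mb, 17.2% of its length) and 4 on chromosome 12 (6.26 Mb, 5.35%), against 21 on all other autosomes (28.6 Mb, 1.33%). The longest on chromosome 7 ran for 2.75 Mb between Vmn2r29 and Vmn2r50 and held 20 vomeronasal receptor genes and Clcn4, a chloride/proton exchanger. The next, of 2.49 Mb and ending at Scgb2b24, held 28 secretoglobin genes and Gramd1a. A stretch of 2.44 Mb between Fah (fumarylacetoacetate hydrolase) and Nox4 (an NADPH oxidase) held 17 olfactory and 15 vomeronasal receptor genes. The other 2 of the 5 longest held no receptor gene. One of 1.46 Mb lay between Gm36722 and 1600014C10Rik. It began inside Tshz3 and held Zfp536, both zinc finger transcription factors, Uri1, and Ccne1, the cyclin E1 of the G1/S transition. A shared region 1060 bp upstream of Tshz3 lay just outside this stretch. One of 1.37 Mb between 1700015G11Rik and Luzp2 held no protein-coding gene.

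On chromosome 12 the longest stretch, 2.21 Mb between Tmem121 and Zfp386, held 182 immunoglobulin heavy chain segments, 150 of them V segments, and the protein-coding genes Adam6a and Adam6b. A stretch of 1.72 Mb between Ak7 (an adenylate kinase) and Bcl11b (a zinc finger factor of T cells and neurons) held Papola, the poly(A) polymerase, and Vrk1, a kinase of chromatin. Stretches of 1.20 Mb and 0.908 Mb between Adck1, Dio2 and Cep128 overlapped Nrxn3, a presynaptic adhesion molecule whose gene also held a shared region between them, and one of 1.14 Mb between Lrfn5 and Gm51965 held Fscb. The last lies in a sparse run, noticed in the bins, from 60 to 68 Mb. Its 8 bins had 1 to 6 regions each, 26 in all, with 18 peaks in replicate 1, 0 in replicate 2 and 8 in replicate 3, and none was shared. A count of 0 of 26 allows up to 11.5% only for a run fixed beforehand. This run was chosen after its counts had been seen, so the limit does not hold for it. The bins hold 14 protein-coding genes.

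On chromosome 7, among the 3 bins with most regions, the bin from 19 to 20 Mb, with 53 genes, had 22 regions, 5 of them shared, at or near Tomm40 (the pore of the mitochondrial import complex), Snrpd2 (a core spliceosomal protein), Ercc2 (the XPD helicase of TFIIH) and Sympk (a scaffold of mRNA 3′ end processing) and in Dmpk, a muscle kinase. The bin from 112 to 113 Mb had 22 regions and 2 shared, at Usp47 (a deubiquitinase) and Tead1 (the DNA-binding partner of YAP), and that from 83 to 84 Mb had 21 and 3, at Il16 and near Mesd. On chromosome 12 the bin from 79 to 80 Mb had 25 regions and 3 shared, in Rad51b (a gene of homologous recombination) and near Plekhh1. That from 69 to 70 Mb had 24 and 5, near Arf6 and in Cdkl1 and Atl1, and that from 31 to 32 Mb had 22 and 3, at Hbp1, Bcap29 and Slc26a4.

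By mean rank of fold over the lists, the first shared region of both chromosomes was at the start of Sec23ip. This gene encodes a partner of the COPII coat protein SEC23 at endoplasmic reticulum exit sites. The region lies at chr7:128744677-128745064 and had folds of 11.20, 11.40 and 11.46 in replicates 1, 2 and 3. Its q-values were 3.76e-25, 2.10e-26 and 6.50e-25. Among all 5114 shared regions it ranked 7 by fold over the lists. The median fold of the shared regions of chromosome 7 was 4.54, 4.46 and 4.46. Sec23ip lay far above the typical shared region in all 3 lists, but it was chosen for its mean rank over them. Its summits lay 25 bp apart at most.

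Next to Sec23ip by mean rank of fold on chromosome 7 was the start of Kdm8, a JmjC-domain oxygenase, with folds of 7.27, 7.79 and 8.28. The start of Zfp689 had 7.06, 7.80 and 6.95, and that of Scaf1, an SR-related factor that binds RNA polymerase II, had 6.36, 7.79 and 8.60. These promoters are the ones printed above. Away from starts, Iglon5, a neural cell adhesion protein, had a region in its body with 8.18, 6.96 and 7.01, and a region 13.8 kb from Atp10a, a phospholipid flippase, had 5.75, 8.63 and 7.64. In Usp29, a paternally expressed imprinted gene of a ubiquitin protease, the folds were 6.66, 6.12 and 7.96.

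The remaining regions of the first 12 on chromosome 7 had folds from 5.10 to 8.90. A region 13.7 kb from Abhd2 (a lipid hydrolase) had 7.57, 5.85 and 6.69, and one at the start of Rab4b (a GTPase of recycling endosomes) 6.66, 6.12 and 6.55. A region 19.3 kb from Th, tyrosine hydroxylase of catecholamine synthesis, had 6.66, 6.76 and 5.73. At the Tomm40 start the folds were 6.36, 5.85 and 7.01, and at the Zfp27 start 5.10, 8.90 and 6.05. The order of these neighbours changed from list to list.

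On chromosome 12 the start of Hbp1, an HMG-box repressor of cell cycle genes, ranked first, at chr12:31950195-31950557, with folds of 7.87, 11.13 and 8.28 and a rank of 25 among all shared regions. The region between the starts of Zfp277 and Dock4 (an activator of Rac) had 8.59, 7.79 and 7.12. The median of the shared regions of chromosome 12 was 3.94, 4.18 and 3.92. Both regions were far above it in every list, but they were chosen for their mean rank over the lists.

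Most of the other strong regions of chromosome 12 lay away from genes. A region 126 kb from Dact1, a regulator of Wnt signalling, had folds of 6.82, 7.51 and 6.05, and one 40.7 kb from Arf6, a GTPase of membrane traffic, 5.45, 7.51 and 6.05. The nearest gene was 86.8 kb away for the region near Sptssa (a subunit of serine palmitoyltransferase; 5.45, 6.12 and 7.64) and 195 kb for Trib2 (a pseudokinase; 7.27, 6.40 and 4.83). Gene bodies of Hpcal1 (a neuronal calcium sensor; 4.84, 5.29 and 6.37), Nrxn3 (6.96, 5.29 and 4.78) and Atxn3 (a deubiquitinase; 6.75, 4.44 and 6.19) held others. Tspan13, a tetraspanin, had 4.54, 6.68 and 5.41 at its start, and a region 6.12 kb from Ckb, brain-type creatine kinase, 4.84, 6.68 and 4.84.

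**Figure D5:**
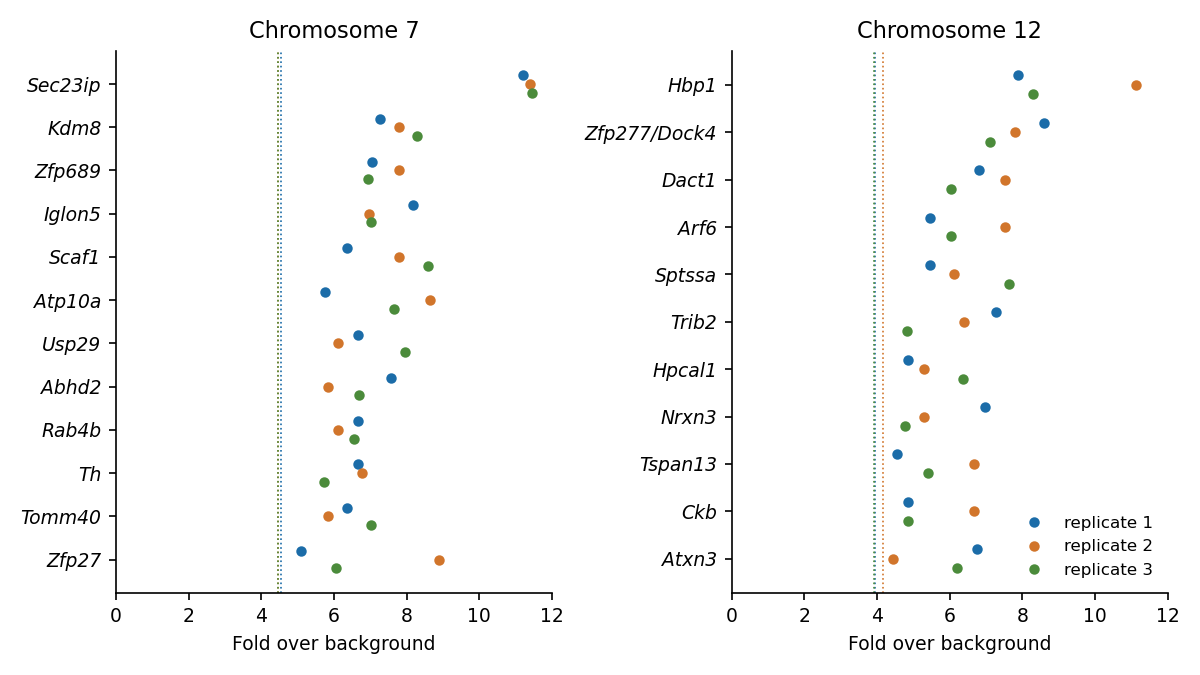
Fold over background (x axis) in replicates 1, 2 and 3 for the shared regions of each chromosome with the highest mean rank, 12 on chromosome 7 and 11 on chromosome 12, named by the gene they lie in or nearest to. Dotted lines mark each list's median over the chromosome's shared regions, and Sec23ip (11.20, 11.40 and 11.46) and Hbp1 (7.87, 11.13 and 8.28) lead.

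Over all members, 5 shared regions of chromosome 7 and 2 of chromosome 12 were among the first 100 of all shared regions by mean rank. A fold of at least 5 in every list was reached by 15 of 113 shared regions on chromosome 7 (13.3%) and 5 of 120 on chromosome 12 (4.17%), against 8.97% on the other autosomes. A q-value of at most 0.05 in every list was reached by 75 (66.4%) and 64 (53.3%), against 57.0%. Summits of the 3 lists lay within 50 bp of each other in 60 shared regions of chromosome 7 (53.1%) and 44 of chromosome 12 (36.7%), against 36.2%. Shared regions more than 100 kb from any start numbered 19 of 113 on chromosome 7 (16.8%) and 50 of 120 on chromosome 12 (41.7%), against 36.5%. None of these differences was tested.

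The shared regions with the lowest folds, by contrast, were the last peaks of each chromosome. One 16.9 kb from Mrgprd, at chr7:145340972-145341412, had folds of 1.75, 1.48 and 1.89, and one 7.43 kb from Tmem196, at chr12:120028671-120029021, had 1.73, 1.64 and 1.87. Their low folds rested on high signal: at the first, the pileup was 353 fragments over a background of 202 in replicate 1 and 343 over 181 in replicate 3, and at the second 311 over 179 and 310 over 166, where the median pileup of peaks on either chromosome was 10. The q-values were 1.04e-16, 2.85e-07 and 2.87e-21 at the first and 4.09e-14, 1.56e-11 and 3.58e-18 at the second, so they were weak by fold only. Both regions were singled out after their values had been seen. The control FLAG library that could show whether Onecut3 is needed for them was not analysed here.

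A shared region within 3 kb of the gene was found for 89 of 2025 protein-coding genes of chromosome 7 (4.40%) and 59 of 678 of chromosome 12 (8.70%), against 13.1% on the other autosomes and 11.5% of all genes. Without receptor genes chromosome 7 had 5.59%. Counting only listed transcription starts, 42 of 1742 genes of chromosome 7 (2.41%) and 16 of 588 of chromosome 12 (2.72%) had one within 3 kb, against 4.88% on the other autosomes and 4.35% of all. Both chromosomes were below the background by either measure, and both were chosen for few peaks.

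Lists of genes were grouped by function, but they were chosen with earlier results of these data known, so their shares are descriptions only. In these lists, 6 of 99 Zfp genes had a shared region within 3 kb. They were Zfp574 (5.37, 5.85 and 5.41), Zfp27, Zfp689 and Zfp277 with the values above, and Zfp383 and Zfp607b. The region of Zfp383 was that of Zfp27, 1815 bp from the Zfp383 gene and 2052 bp from the listed Zfp383 start. Of 22 fibroblast, matrix and TGF-beta genes 4 had one. The growth factor Igf2, a paternally expressed imprinted gene, had folds of 5.75, 4.73 and 5.73 at a region 534 bp from its start. Igf1r, the receptor for IGF1 and IGF2, had 4.54, 4.46 and 4.78 in its body, and Tead1 2.73, 7.24 and 3.18. Tgfb3, a TGF-beta ligand, had 3.63, 5.29 and 3.82 at 2124 bp from the gene. The region counted for Tgfb3 lay nearer to Ift43, 990 bp from the Ift43 start. Replicate 2 was high at Tead1 while replicates 1 and 3 were low, with q-values of 0.521 and 0.142. Igf2 and Usp29 were the 2 of 16 imprinted genes with a shared region.

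Of 35 developmental transcription factors 3 had one. Nr2f2 (COUP-TFII, a nuclear receptor) had 5.45, 5.01 and 3.18 in its body, Tshz3 5.90, 2.90 and 4.56 at 1060 bp upstream, and Klf13 3.88, 3.14 and 3.42. Of 20 neuronal genes 6 had one, most of them long genes with the region far from a start. Npas3 (a bHLH-PAS factor) had 6.36, 3.62 and 5.41, Nrxn3 6.96, 5.29 and 4.78, Tenm4 (a teneurin) 3.94, 6.12 and 5.73, and Grik5, a kainate receptor subunit, shared its region with Zfp574. The regions of Nrxn3, Npas3 and Tenm4 were 76.4, 288 and 46.7 kb from the nearest listed start of any gene. Longer genes have more room for a region, and these shares were not corrected for length.

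Of 6 AP-1 and immediate early genes, Jdp2 (a basic leucine zipper repressor) had a shared region, with 3.63, 3.07 and 3.82. Its q-value in replicate 2 was 0.368. Of 23 cell cycle and mitosis genes, Cdkl1, a CDK-like kinase, had one, with 3.94, 5.57 and 3.50. None of 13 liver genes had one, a list too short to tell this count from the 5.48% of all genes on the 2 chromosomes. Jdp2 lay below the median of the shared regions of its chromosome (3.94, 4.18 and 3.92) in every list, and Cdkl1 above it in replicate 2 only. Beside 5.48% of all genes on the 2 chromosomes and 11.5% of all genes, the share was 18.2% for the fibroblast list, 30.0% for the neuronal list, 16.7% for AP-1, 12.5% for imprinted genes, 8.57% for developmental factors, 6.06% for Zfp genes and 4.35% for the cell cycle. The lists hold 6 to 99 genes, so single genes move these shares. They were also chosen with earlier results of these data known, and the shares were not tested.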

How the data were processed

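Anti-FLAG ChIP-Seq peak lists of 3 Onecut3-OE replicates were used. Tools credited in the submitters' processing notes, with no role stated, are deepTools 3.3.2, MACS2 2.1.0 and Bowtie2 2.2.6, with GRCm38 as the build. The study's methods give MACS as the peak caller. No source used here states how reads were filtered. The lists deposited by the authors hold, for each peak, a score, a fold (a ratio with 1 added to pileup and background), a −log10 p-value and a −log10 q-value. Groups came from the labels.

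Peaks overlapping by at least 1 bp were merged. Genes came from a RefSeq table of GRCm38.p6, without exons, and starts and promoter sequences from a RefSeq table that gives a start for 2330 genes of chromosomes 7 and 12. Exon and intron positions were not used. Table entries that start in the unassembled first 3 Mb (10 on chromosome 7, 16 on chromosome 12) were left out. Chromosome lengths are the end of the last gene or peak. Pileup and background were solved from fold and p with a tolerance of 0.001 in −log10 p for replicates 1 and 3 (99.99% and 99.96% of peaks, floors 2.30 and 2.14), which was possible for 0.14% of replicate 2. Lists were compared by an exact sign-flip permutation test. Genes were named by a rule: those at the 12 strongest shared regions per chromosome, up to 4 per list, those bordering the 5 longest empty stretches, up to 4 in the 3 densest bins, and 6 promoters. Some items that the rule names are not reported here. Names outside the rule were chosen after their values were seen. Members and lists were chosen with earlier results of these data known. Alternatives were stricter q or fold limits, other overlaps, bins, windows and lengths, bins without receptor genes, and leaving out each replicate. Merging, solving and the permutation test were checked on simulated data. Software was scipy 1.17.1, numpy 2.4.6, matplotlib 3.10.9 and pandas 2.3.3 under Python 3.11.15.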

Additional observations from a re-analysis of the deposited data

How the results depend on the processing

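Numbers of regions moved with the peak limit, while both chromosomes had fewer peaks per Mb than the other autosomes under every setting run. At a −log10 q of at least 5, shared regions were 18 on chromosome 7 and 11 on chromosome 12 (21.2% and 15.9% of regions, against 14.3% on the other autosomes), with 0.307 and 0.294 peaks per Mb against 0.708, so that chromosome 12 was below chromosome 7. At a −log10 q of at least 1.3 they were 75 and 64 (15.1% and 12.6%, against 13.7%), with 1.68 and 2.06 peaks per Mb against 4.47. At a fold of at least 5 they were 15 and 5 (15.8% and 6.17%, against 13.7%), with 0.335 and 0.325 per Mb against 0.714. With summits within 100 bp, chromosome 12 had 7.72% shared, against 8.00%. For chromosome 12 minus the other autosomes, the mean difference in the percent of peaks in shared regions turned to 2.81 at a −log10 q of at least 5 and to 1.22 without replicate 3, and that in median fold to -0.0537 at a fold of at least 5. For chromosome 7 the percent in shared regions turned to -0.85 without replicate 2. It was 11.93 for chromosome 7 at a −log10 q of at least 5 and 3.51 at a fold of at least 5, where it was -14.03 for chromosome 12. The cause of these changes was not tested.

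Bins without a peak were 14.7% and 8.09% of bins of 0.5 Mb on chromosomes 7 and 12, and 1.39% and 0% of bins of 2 Mb. Genes with a shared region within 10 kb of a start were 64 and 31. Leaving out each replicate in turn, with shared meaning both remaining lists, gave 139 to 204 on chromosome 7 and 154 to 224 on chromosome 12 as the number shared, or 19.5 to 21.8% on chromosome 7 and 19.6 to 21.4% on chromosome 12 as their share of regions. Peaks per Mb were 2.67 to 4.3 on chromosome 7 and 3.64 to 5.7 on chromosome 12, bins without a peak 4.9 to 16.1% on chromosome 7 and 1.69 to 6.78% on chromosome 12, and genes with a shared region within 3 kb of a start 47 to 57 on chromosome 7 and 16 to 23 on chromosome 12. The difference from the other autosomes in the percent of peaks in shared regions was -0.85 to 3.72 for chromosome 7 and -0.92 to 1.22 for chromosome 12, and that in median fold 0.093 to 0.15 and 0 to 0.0427. Counting peaks outside receptor bins gave 4.01 on chromosome 7 and 4.71 on chromosome 12, against 9.98 on the other autosomes in peaks per Mb, and without the unassembled start 3.53 on chromosome 7 and 4.76 on chromosome 12, against 9.95 on the other autosomes. Each difference from the other autosomes was paired within a list. Depth is unknown. Of 108 alternative values, 57 kept within the limits set, 47 moved and 4 reversed.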
